A study of Homo sapiens with 6 samples.

Results

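The transcripts of 6 DNA mismatch repair genes, MSH6, MSH3, PMS2, PMS1, MLH3 and EXO1, were followed in HCT116 human colon cancer cells with and without forced expression of cytoglobin (CYGB). The genes were chosen by name, HCT116 being a line known to be deficient in mismatch repair, and the rule itself used no measured value. They are 6 of the 40173 genes in the deposited count table, and 64 of its 151453 transcripts that carry a gene. The control group, MOCK, was HCT116 transduced with the MOCK virus, and its genotype is given as wild type. The CYGB group was HCT116 transduced with a lentivirus carrying the FLAG-tagged CYGB coding region. Both groups were puromycin-selected populations in RPMI 1640 medium, at the same range of passages, and each was represented by 3 libraries. The labels number the 3 libraries as replicates. Whether they came from separate cultures or transductions is not given in the sources used here, so p-values measure the spread between these libraries.

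Mismatch repair removes base mispairs and small loops left behind by DNA polymerase. MutS heterodimers recognise the error, MutL heterodimers are recruited to it and nick the new strand, and an exonuclease removes the stretch, which is then resynthesised. MSH6 is the subunit that gives MutSα its preference for mispairs and the smallest loops, and MSH3 gives MutSβ its preference for larger loops. PMS2 carries the nicking activity of MutLα, PMS1 is the partner subunit of MutLβ, whose role is less clear, and MLH3 belongs to MutLγ, best known from meiotic crossing over. EXO1 is the exonuclease that degrades the nicked strand. Loss of the pathway leaves unstable microsatellites, a hallmark of a class of colorectal tumours.

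The promoter windows of 4 of the genes are shown because PMS2 and PMS1 start opposite a neighbouring gene whose counts are given beside theirs, and because MSH6, PMS2 and EXO1 are 3 of the 4 members with E2F-type letters there. The fourth is MSH3, whose window is not printed. Each window runs from 250 bases before to 50 bases after a RefSeq start (GRCh38.p14) and is printed 5′ to 3′. The start nearest to the most abundant transcript was taken. Capitals mark forms of the E2F element of genes copied into RNA before S phase, and also CCAAT, each on either strand. The E2F-type forms searched were TTTGGCGC and also TTTCCCGC, with TTTCGCGC as the third and finally TTTGCCGC.
PMS2 (chr7:6009000-6009299, minus strand): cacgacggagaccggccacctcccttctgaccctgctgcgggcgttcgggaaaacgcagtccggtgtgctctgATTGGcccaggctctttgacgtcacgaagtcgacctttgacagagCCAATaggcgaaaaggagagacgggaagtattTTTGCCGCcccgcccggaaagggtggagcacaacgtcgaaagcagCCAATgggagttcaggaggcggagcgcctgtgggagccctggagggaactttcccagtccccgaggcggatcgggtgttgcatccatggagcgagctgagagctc
PMS1 (chr2:189784200-189784499, plus strand): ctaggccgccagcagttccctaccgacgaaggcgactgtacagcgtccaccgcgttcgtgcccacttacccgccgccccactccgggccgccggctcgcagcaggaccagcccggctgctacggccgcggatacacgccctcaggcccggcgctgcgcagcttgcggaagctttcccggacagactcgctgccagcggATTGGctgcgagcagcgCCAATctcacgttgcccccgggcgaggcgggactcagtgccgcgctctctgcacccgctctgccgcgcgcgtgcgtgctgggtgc
MSH6 (chr2:47782895-47783194, plus strand): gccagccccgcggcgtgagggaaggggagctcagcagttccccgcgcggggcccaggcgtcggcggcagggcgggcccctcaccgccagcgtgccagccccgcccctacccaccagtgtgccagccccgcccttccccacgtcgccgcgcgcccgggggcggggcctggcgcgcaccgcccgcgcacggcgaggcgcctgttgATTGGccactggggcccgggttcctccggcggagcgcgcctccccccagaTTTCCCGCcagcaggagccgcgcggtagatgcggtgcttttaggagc
EXO1 (chr1:241847954-241848253, plus strand): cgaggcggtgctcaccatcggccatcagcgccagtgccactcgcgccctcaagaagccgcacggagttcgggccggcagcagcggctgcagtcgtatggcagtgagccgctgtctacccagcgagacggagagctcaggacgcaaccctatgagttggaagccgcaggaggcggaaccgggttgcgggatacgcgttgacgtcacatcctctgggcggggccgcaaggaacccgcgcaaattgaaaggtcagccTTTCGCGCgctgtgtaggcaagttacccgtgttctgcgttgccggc
The MSH6, PMS2 and EXO1 windows hold 1 E2F-type match each, that of MSH3 holds 2, which overlap, and those of PMS1 and MLH3 hold 0. The RefSeq start used for MLH3 lies 1776 bases from the start of its most abundant transcript. For the other members this distance is 4 to 69 bases. Of all 35116 RefSeq promoter windows of this length, 3.31% hold at least 1 of these E2F-type forms and 34.6% hold a CCAAT box. This box occurs 3 times in the PMS2 window, 2 times in that of PMS1 and 1 time in that of MSH6. These are matches of letters, and binding was not measured.

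The 6 libraries held 47193496 to 53531777 counts on transcripts with a gene. A further 18.6 to 19.5% of each library's counts lay on transcripts that the table ties to no gene. Whether reads of a mismatch repair gene were counted there was not tested. CYGB itself was at 10 to 34 counts in MOCK and at 27681 to 34935 in CYGB libraries, so the labels held. All 5 epithelial markers listed (EPCAM, KRT8, KRT18, KRT19 and CDH1) were abundant in each library. Of 7 markers of blood, vessel and stromal cells, PTPRC, CD3E, PECAM1, LUM and COL1A2 stayed at 0 to 13 counts and VWF at 22 to 99. COL1A1 was the exception, at 2117 to 2823 counts in each library of both groups.

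None of the 6 mismatch repair genes passed a threshold when CYGB was compared with MOCK. All 6 were expressed and all passed edgeR's expression filter. MSH6, PMS2, EXO1 and MLH3 had positive log2 fold changes and MSH3 and PMS1 negative ones, from -0.67 for MSH3 to 0.83 for EXO1. The members were read at a threshold of an unadjusted p of at most 0.01 together with a 2-fold or larger change either way, and at an adjusted p under 0.05. At the first threshold 0 of 6 members were called, against 0.565% of all 19987 genes tested (0.280% higher and 0.285% lower in CYGB). At the second 0 of 6 were called, against 0.0550% of all genes. At an unadjusted p under 0.05, edgeR's quasi-likelihood test gave 0 of 6 members, against 4.54% of all genes. DESeq2 and edgeR's exact test also called 0 of 6 at either threshold. The CPM (counts scaled to library size, with TMM factors) of the groups overlapped for all 6, and it did not overlap for 11.0% of all genes. The median log2 fold change of the 6 was 0.16, beside -0.01 over all genes tested. The test does not show that the genes were alike in the 2 groups, since the 95% intervals of MSH6, MSH3, PMS2 and EXO1 each reach a change of 2-fold or more.

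**Figure D1:**
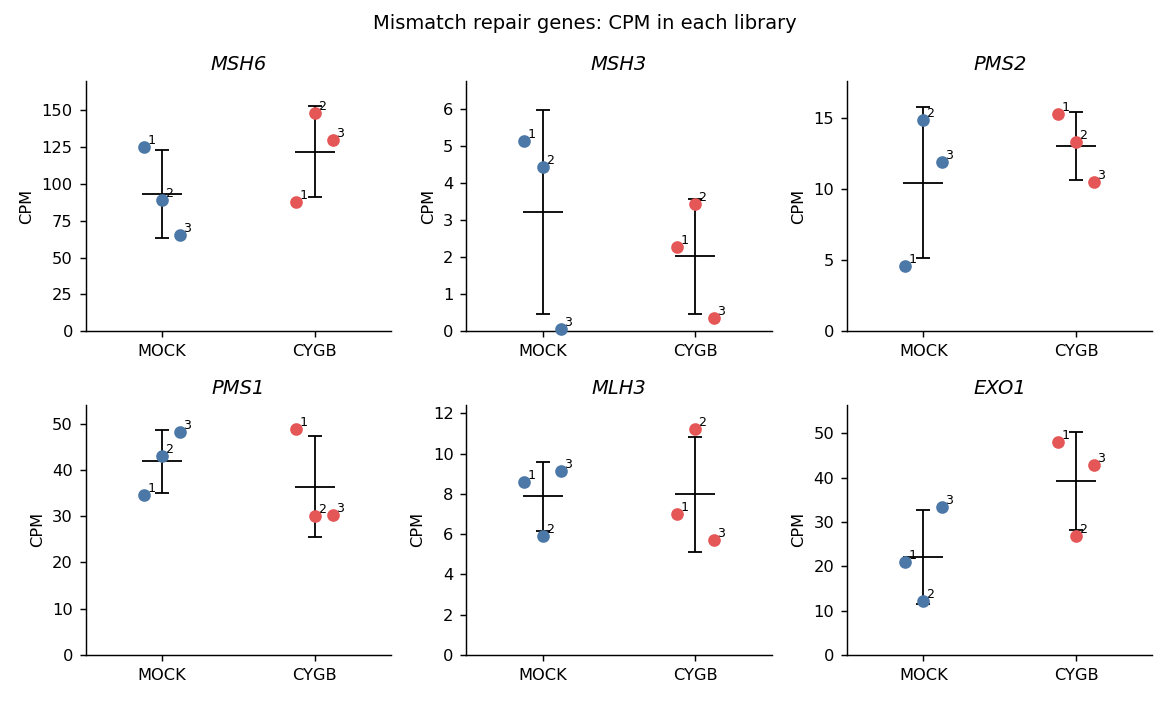
CPM of each mismatch repair gene (vertical axes, from 0) in the 3 MOCK and the 3 CYGB libraries. Points are libraries, labelled by replicate number, and bars give the mean ± SD. The groups overlap in every panel, and MSH3 lies near 0 in the libraries numbered 3.

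To compare levels between genes, counts were divided by annotated transcript length and scaled to a common total (TPM). MSH6 was the most abundant of the 6, with a median of 37.7 TPM over the 6 libraries (range 23.7 to 48.5). PMS1 followed with a median of 26.6 TPM (21.1 to 36.7) and EXO1 with 25.5 TPM (8.16 to 45.4). The ranges of these 3 genes overlapped, and MSH6 exceeded PMS1 in only 3 of 6 libraries. PMS2 had a median of 9.92 TPM (3.85 to 11.1) and MLH3 of 4.96 TPM (3.71 to 5.98), and PMS2 exceeded MLH3 in 5 of 6 libraries. MSH3 was lowest, with a median of 1.81 TPM (0.168 to 2.76), below MLH3 in all 6 libraries and without overlap. Among all tested genes the median level of MSH6 stood at percentile 79.2 and that of MSH3 at percentile 29.2. Thus the 2 MutS subunits lay at opposite ends of the order, and the TPM of MSH6 was 10.2 to 141 times that of MSH3 within a library. The upper value rests on MOCK replicate 3, with 3 counts of MSH3, and the highest in the other 5 libraries was 33.8. That ratio is of CYGB replicate 3, where all 18 MSH3 counts lay on ENST00000512531, a 531-base processed transcript. In the libraries numbered 1 and 2 the ratio was 10.2 to 31.9. There too the short transcript took part, with 11 counts in MOCK replicate 2 and 16 in CYGB replicate 2. Its length gives each of its counts more weight in TPM, which lowers the ratio in these libraries.

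MSH6 (ENSG00000116062, GRCh38 chromosome 2, 47695530 to 47810101, plus strand) had counts of 5913, 4696 and 3365 in MOCK replicates 1 to 3, against 4428, 7532 and 6812 in the CYGB replicates in the same order. The 2 highest libraries were of the CYGB group, but MOCK replicate 1 exceeded CYGB replicate 1. Mean CPM was 93.1 ± 30.1 for MOCK against 122 ± 31.0 for CYGB (SD, n = 3 each). The log2 fold change was 0.39 (standard error 0.291, 95% interval -0.32 to 1.10, adjusted p = 0.963 by edgeR's quasi-likelihood test). Of its 12 listed transcripts, the long coding form ENST00000234420 led in each library, with 55.5 to 83.6% of the gene's counts. The coding form ENST00000616033 took 13.8 to 25.9%. In CYGB replicate 1 alone, ENST00000540021 received 773 counts, 17.5% of the gene, and it had 0 counts in the other 5 libraries. The end of ENST00000234420 runs into FBXO11, a ubiquitin ligase gene on the opposite strand, and 18.1% of its 150-base windows also occur in FBXO11 transcripts when strand is ignored. FBXO11 had 4365 to 5403 counts and a log2 fold change of -0.07 (adjusted p = 0.966 by the same test).

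MSH3 (ENSG00000113318, chromosome 5 from 80654648 to 80876460, plus strand) had counts of 242, 234 and 3 in the MOCK libraries, against 115, 174 and 18 in CYGB. The library numbered 3 was lowest in each group, and the other 2 MOCK libraries were above the other 2 CYGB libraries. Mean CPM was 3.20 ± 2.75 for MOCK against 2.01 ± 1.56 for CYGB (SD, n = 3 each). With a log2 fold change of -0.67 and a 95% interval from -3.88 to 2.54 (standard error 1.32, adjusted p = 0.981 by edgeR's quasi-likelihood test), the data hold little information on MSH3. Leaving out both libraries numbered 3, an alternative added after the values were seen, moved this to -0.74 (adjusted p = 0.902 by the same test). ENST00000265081, the full coding transcript, had counts of 242, 223 and 0 in the MOCK libraries, against 115, 158 and 0 in CYGB. It accounted for 90.8 to 100% of the gene in the libraries numbered 1 and 2, and 91.4% of its 150-base windows occur in no other listed MSH3 transcript. Whether the counting set the near absence of MSH3 in the libraries numbered 3 was not tested.

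PMS2 (ENSG00000122512, chromosome 7 from 5973239 to 6009125, minus strand) had counts of 217, 789 and 615 in the MOCK libraries, against 772, 674 and 552 in CYGB. MOCK replicate 1 stood below the other 5 libraries, which lay between 552 and 789. Mean CPM was 10.5 ± 5.32 for MOCK against 13.0 ± 2.39 for CYGB (SD, n = 3 each), and the log2 fold change was 0.31 (standard error 0.429, 95% interval -0.73 to 1.36). This difference did not pass edgeR's quasi-likelihood test (adjusted p = 0.969), and it turned to -0.05 without MOCK replicate 1. AIMP2, a scaffold protein of the tRNA synthetase complex, starts 120 bases away on the other strand and shares up to 278 bases of its promoter window with PMS2. AIMP2 had counts of 1457, 1697 and 1640 in the MOCK libraries, against 2629, 2018 and 1956 in CYGB. Its groups did not overlap, as was the case for 11.0% of all genes tested. Its log2 fold change was 0.44, with an unadjusted p of 0.0251 and an adjusted p of 0.963 by the same test. An unadjusted p under 0.05 was found for 4.54% of all genes.

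PMS2 also has many partial copies, and a stretch of its sequence is shown because a read that lies within it fits both the gene and a copy. The longest run that ENST00000642456 shares base for base with the copy PMS2CL is 357 bases, from base 2376 to 2732 of the transcript. The first 90 bases of this run, coding sequence near the end of the open reading frame in GENCODE 29, read as follows.
PMS2 and PMS2CL (ENST00000642456, bases 2376 to 2465): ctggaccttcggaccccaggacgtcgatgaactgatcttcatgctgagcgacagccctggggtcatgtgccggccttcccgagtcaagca
Over the whole of ENST00000642456, 13.7% of the 150-base windows occur in PMS2CL. PMS2CL had counts of 21, 13 and 60 in the MOCK libraries, against 4, 80 and 81 in CYGB, far fewer than PMS2. Of the 15 copies listed, 11 were in the table and 7 passed the expression filter, with 0 called and log2 fold changes from -0.39 (PMS2P6) to 0.82 (PMS2P3). PMS2P3 had 296 counts in CYGB replicate 1 and 67 to 130 in the other libraries. With the copies summed into PMS2 its log2 fold change was 0.30.

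The leading transcript of PMS2 differed between libraries of the same group. ENST00000642456, a coding form, had counts of 154, 711 and 73 in the MOCK libraries, against 738, 147 and 192 in CYGB. ENST00000643595, annotated as a target of nonsense-mediated decay, had 449 counts in MOCK replicate 3 and 412 in CYGB replicate 2, where it made up 73.0 and 61.1% of the gene, and 0 counts in the other 4 libraries. ENST00000644110 had 257 counts in CYGB replicate 3, 46.6% of the gene, and 0 in the other 5. ENST00000265849 had counts of 38, 46 and 88 in the MOCK libraries, against 32, 14 and 32 in CYGB, so its groups did not overlap, as was the case for 10.4% of all transcripts tested. It had a log2 fold change of -1.15 and an adjusted p of 1 by edgeR's quasi-likelihood test. It differs from the other listed PMS2 transcripts in only 0.813% of its windows.

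PMS1 (ENSG00000064933, chromosome 2 from 189784085 to 189877629, plus strand) had counts of 1636, 2272 and 2475 in the MOCK libraries, against 2470, 1527 and 1586 in CYGB. CYGB replicate 1 lay with the upper MOCK libraries and the other 2 CYGB libraries lay below all of MOCK. Mean CPM was 41.9 ± 6.79 for MOCK against 36.4 ± 10.8 for CYGB (SD, n = 3 each). The log2 fold change was -0.20 (standard error 0.239, 95% interval -0.79 to 0.38, adjusted p = 0.964 by edgeR's quasi-likelihood test). Without CYGB replicate 1 it was -0.48 (unadjusted p = 0.0379, adjusted p = 0.962 by that test). ORMDL1, a regulator of sphingolipid synthesis that overlaps the start of PMS1 by 287 bases on the other strand, had counts of 1086, 1056 and 1073 in the MOCK libraries, against 898, 981 and 1018 in CYGB. Its groups did not overlap, as for 11.0% of all genes tested, at a log2 fold change of -0.18 (adjusted p = 0.963 by the same test).

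**Figure D2:**
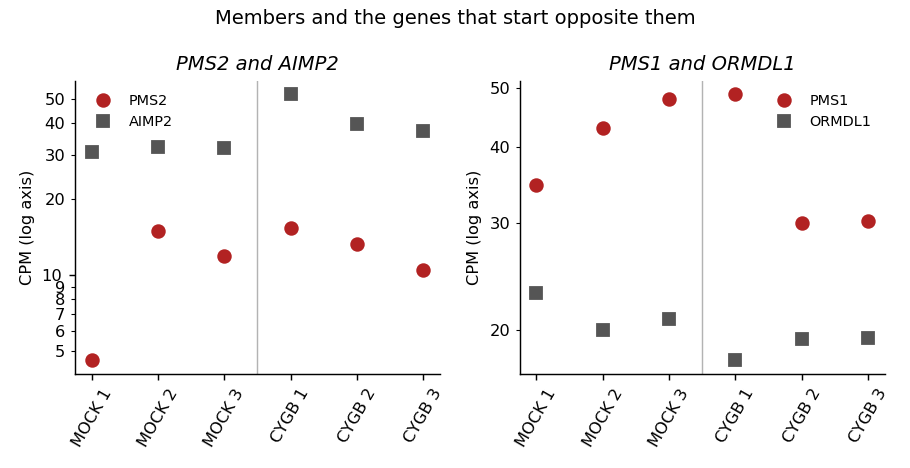
CPM (log axes) of PMS2 and PMS1 (red circles) and of the genes that start opposite them, AIMP2 and ORMDL1 (grey squares), in each library. PMS2 is lowest in MOCK replicate 1, at 4.59 CPM, while AIMP2 and ORMDL1 keep within 30.8 to 52.0 and 17.8 to 23.0 CPM.

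PMS1 had 21 listed transcripts, the most of the 6 genes, and 3 different transcripts led in different libraries. ENST00000441310, a coding form, had counts of 252, 1320 and 511 in the MOCK libraries, against 290, 833 and 193 in CYGB. ENST00000342075, annotated as a target of nonsense-mediated decay, had counts of 327, 0 and 559 in the MOCK libraries, against 1389, 0 and 921 in CYGB, so it was at 0 in both libraries numbered 2. In those libraries ENST00000441310 took 58.1 and 54.6% of the gene. ENST00000409823 had counts of 431, 339 and 170 in the MOCK libraries, against 0, 201 and 0 in CYGB. ENST00000441310, ENST00000342075, ENST00000624204, ENST00000409823 and ENST00000447232, the 5 PMS1 transcripts with a mean of at least 100 counts, have no 150-base window that is absent from the other PMS1 transcripts. Thus no single read of that length tells any of the 5 from all the others. The paper states that reads of 150 bases were sequenced in pairs, and whether a pair could tell these transcripts apart was not tested.

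MLH3 (ENSG00000119684, chromosome 14 from 75013764 to 75051532, minus strand) had counts of 405, 313 and 470 in the MOCK libraries, against 354, 567 and 300 in CYGB. The groups overlapped almost fully, with means of 7.88 ± 1.71 CPM in MOCK and 7.96 ± 2.84 CPM in CYGB (SD, n = 3 each). The log2 fold change was 0.02, with a 95% interval from -0.73 to 0.76 (standard error 0.307, adjusted p = 0.999 by edgeR's quasi-likelihood test). It was -0.31 without CYGB replicate 2 and -0.15 without MOCK replicate 2. The coding transcript ENST00000556740 led in all 6 libraries with 46.6 to 70.3% of the counts, and the coding ENST00000380968 took 15.7 to 43.4%.

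EXO1 (ENSG00000174371, chromosome 1 from 241847967 to 241895148, plus strand) had the largest fold change of the 6 in the CYGB direction. It had counts of 985, 645 and 1720 in the MOCK libraries, against 2431, 1366 and 2252 in CYGB. The 2 highest values were of CYGB and the 2 lowest of MOCK, and MOCK replicate 3 exceeded CYGB replicate 2. Mean CPM was 22.2 ± 10.7 for MOCK against 39.3 ± 11.1 for CYGB (SD, n = 3 each), which is 1.77-fold. The log2 fold change was 0.83 (standard error 0.403, 95% interval -0.16 to 1.81), and it did not pass edgeR's quasi-likelihood test (unadjusted p = 0.0854, adjusted p = 0.963). It stayed positive with each library left out, from 0.53 without MOCK replicate 2 to 1.25 without MOCK replicate 3. In the latter fit the unadjusted p was 0.017 and the adjusted p 0.849 by the same test.

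The 3 EXO1 transcripts with a mean of at least 100 counts carried nearly all of its signal. ENST00000366548, the longer coding form, had counts of 713, 127 and 1119 in the MOCK libraries, against 1365, 770 and 599 in CYGB. ENST00000348581, also coding, had counts of 260, 504 and 312 in the MOCK libraries, against 503, 373 and 972 in CYGB. ENST00000423131, a short form of 950 bases that ends early in the gene, had counts of 0, 0 and 272 in the MOCK libraries, against 516, 211 and 656 in CYGB. It was found in all 3 CYGB libraries and in 1 of 3 MOCK libraries, and its log2 fold change of 2.33 did not pass (adjusted p = 1 by edgeR's quasi-likelihood test). Without MOCK replicate 3 the short form passed the threshold on the unadjusted p (adjusted p = 0.28 by edgeR's quasi-likelihood test), in a fit where 1209 transcripts did. Only 3.00% of its windows are absent from the other EXO1 transcripts.

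Over all 6 genes, 58 of the 64 listed transcripts had at least 1 count and 26 were tested. None of the 26 passed the threshold on the unadjusted p, against 1.02% of all 66609 transcripts tested (0.540% higher and 0.482% lower in CYGB), and none had an adjusted p under 0.05, against 0.0150%. With edgeR's quasi-likelihood test 0 of the 26 had an unadjusted p under 0.05, against 3.78% of all, and DESeq2 and edgeR's exact test also called 0. Among the 26, the CPM of the groups did not overlap only for ENST00000265849 of PMS2 and ENST00000409593 of PMS1, against 10.4% of all transcripts tested. Of the 16 mismatch repair transcripts with a mean of at least 100 counts, 7 (43.8%) were at 0 in at least 1 library. The same held for 10.6% of all 28036 transcripts with that mean, and for 5 of 43 (11.6%) of the repair partners described next, in each case whether tested or not. The number of transcripts listed per gene was not matched in these shares.

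**Figure D3:**
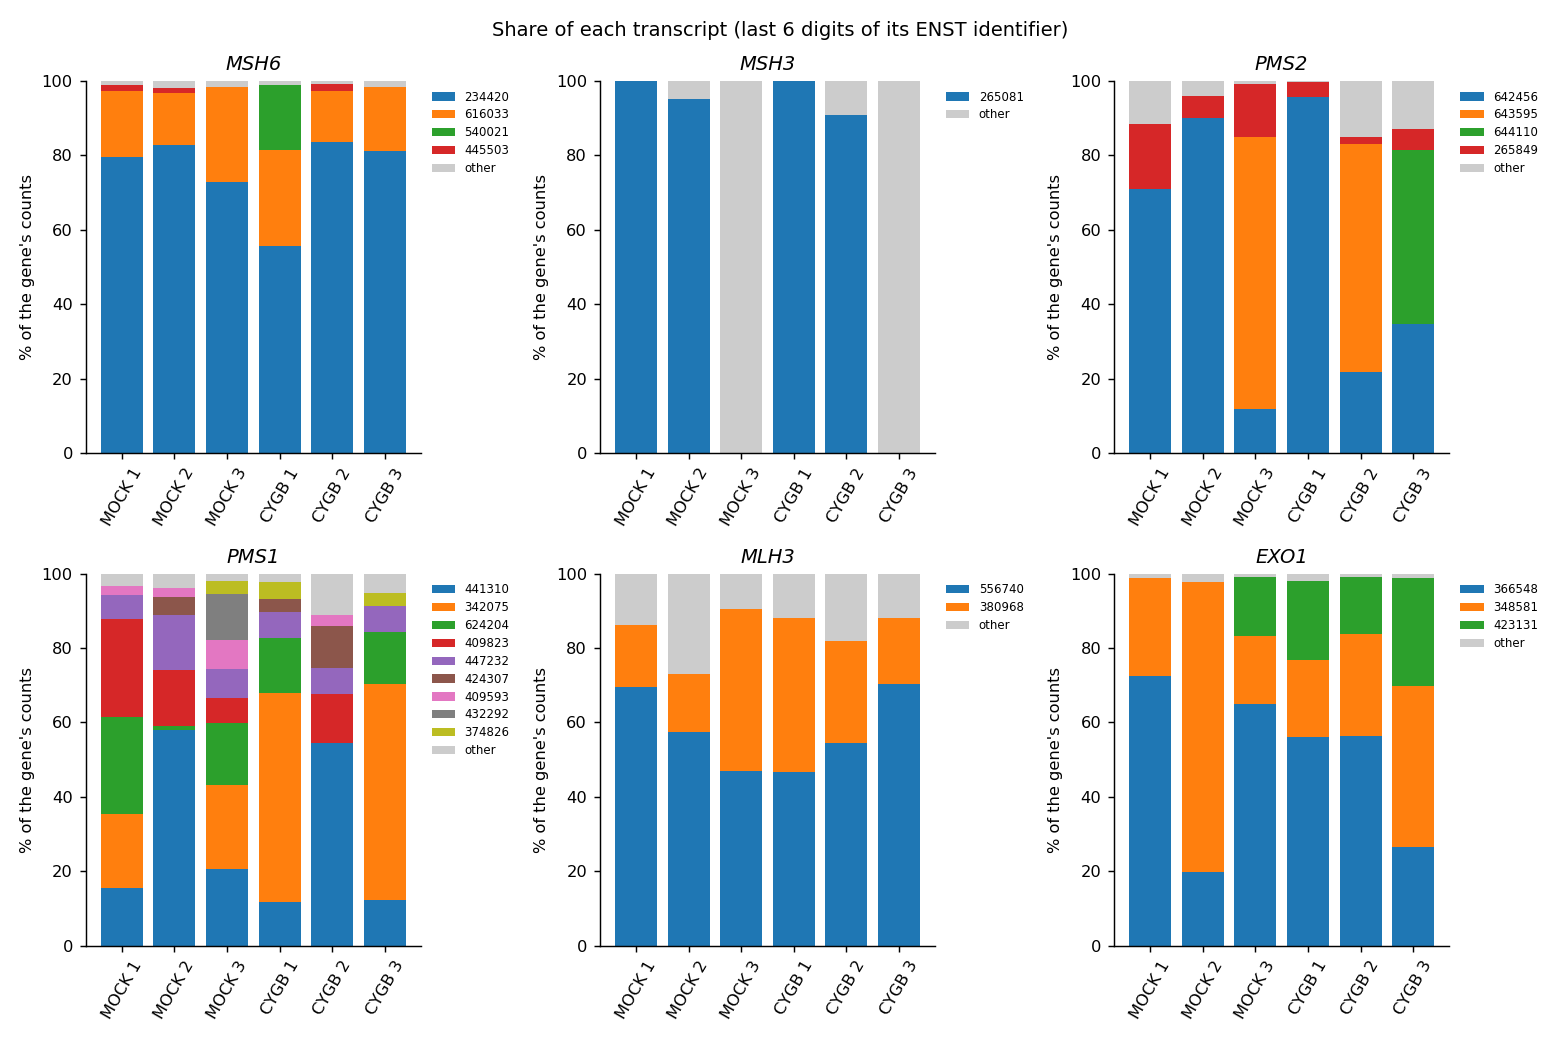
Share of each gene's counts (vertical axes, percent) on each transcript with a mean of at least 40 counts, by library, with the rest in grey. MSH6 and MLH3 keep 1 leading transcript in all 6 libraries, whereas that of PMS2, PMS1, EXO1 and MSH3 differs between libraries of the same group. The MSH3 bars numbered 3 rest on 3 and 18 counts.

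Partners in the same pathway were examined as a list of 14 genes. The list holds the sliding clamp PCNA, its loader (RFC1 to RFC5) and the single-strand binding protein RPA (RPA1 to RPA3). It also holds DNA ligase LIG1 and the subunits of polymerase delta (POLD1 to POLD4). Of these, 0 were called at either threshold, and 12 had positive and 2 negative log2 fold changes, with a median of 0.07. POLD2 was the partner with an unadjusted p under 0.05, at a log2 fold change of 0.22 (adjusted p = 0.963 by edgeR's quasi-likelihood test). It had counts of 5752, 6563 and 6817 in the MOCK libraries, against 7142, 7760 and 7718 in CYGB. This is 1 of 14 partners, against 4.54% of all genes. The CPM of the groups did not overlap for POLD2, RPA2 and LIG1, 3 of 14, against 11.0% of all genes. The highest log2 fold change was that of RFC5, at 0.91, which rested on 1124 counts in CYGB replicate 2 against 246 to 583 in the other libraries. The lowest was that of POLD3, at -0.52, with 490 counts in CYGB replicate 1 against 1250 to 1709 elsewhere. PCNA averaged 451 ± 21.3 CPM for MOCK against 471 ± 18.1 for CYGB (SD, n = 3 each). Of the partners' transcripts, 4 of 96 tested passed the threshold on the unadjusted p, against 1.02% of all transcripts, and their adjusted p ranged from 0.234 to 0.774 by edgeR's quasi-likelihood test. These were 1 of LIG1 (ENST00000427526), 1 of POLD1 (ENST00000613923) and 2 of POLD4 (ENST00000528087 and ENST00000539074), named after their values were seen. The POLD1 transcript had 57 to 179 counts in MOCK and 1178 to 1551 in CYGB, and ENST00000539074 of POLD4 had 25 to 91 in MOCK and 0 in each CYGB library. As whole genes, LIG1, POLD1 and POLD4 had log2 fold changes of only 0.16, 0.07 and 0.01. Whether reads could tell these transcripts from others of the same gene was not tested.

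The spread between libraries of a group was larger for the mismatch repair genes than for most partners. The within-group SD of log2 CPM ranged from 0.332 (PMS1) to 2.59 (MSH3) with a median of 0.517, beside a median of 0.115 for the 14 partners and 0.314 for all genes tested. It was above the median of all genes for 6 of 6 mismatch repair genes and for 3 of 14 partners. MSH3 varied more than 99.4% of all genes. For PMS2 and EXO1 this share was 79.4 and 76.1%. MSH6, MLH3 and PMS1 lay nearer the middle, at 63, 61.9 and 52.4%. The partners were also more abundant, with mean levels from 10.0 to 461 CPM against 2.61 to 107 CPM, and the part of abundance in the spread was not tested. No test was made of the difference in spread.

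**Figure D4:**
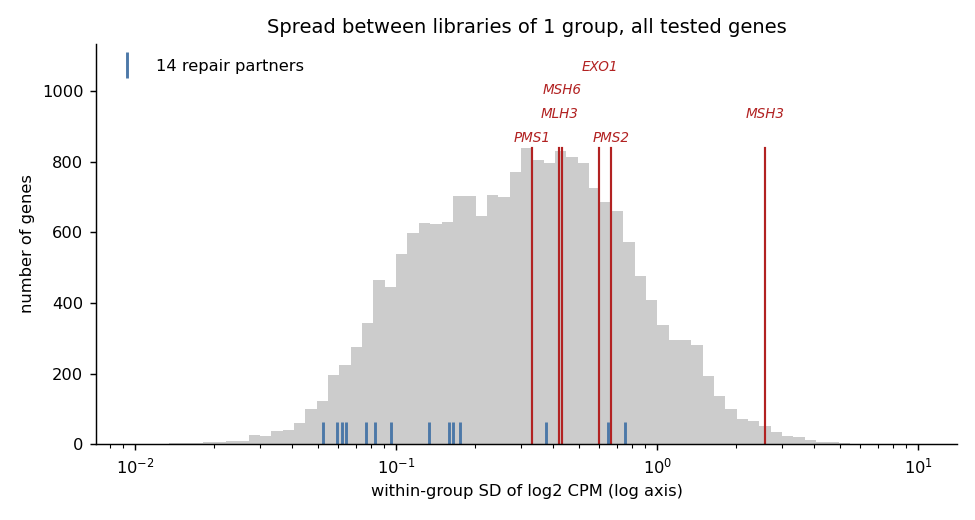
Number of tested genes (vertical axis) by the within-group SD of log2 CPM (horizontal log axis). Red lines mark the 6 mismatch repair genes and blue ticks the 14 repair partners. All red lines lie to the right of the median of 0.314 and 11 of the 14 ticks to its left.

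**Figure D5:**
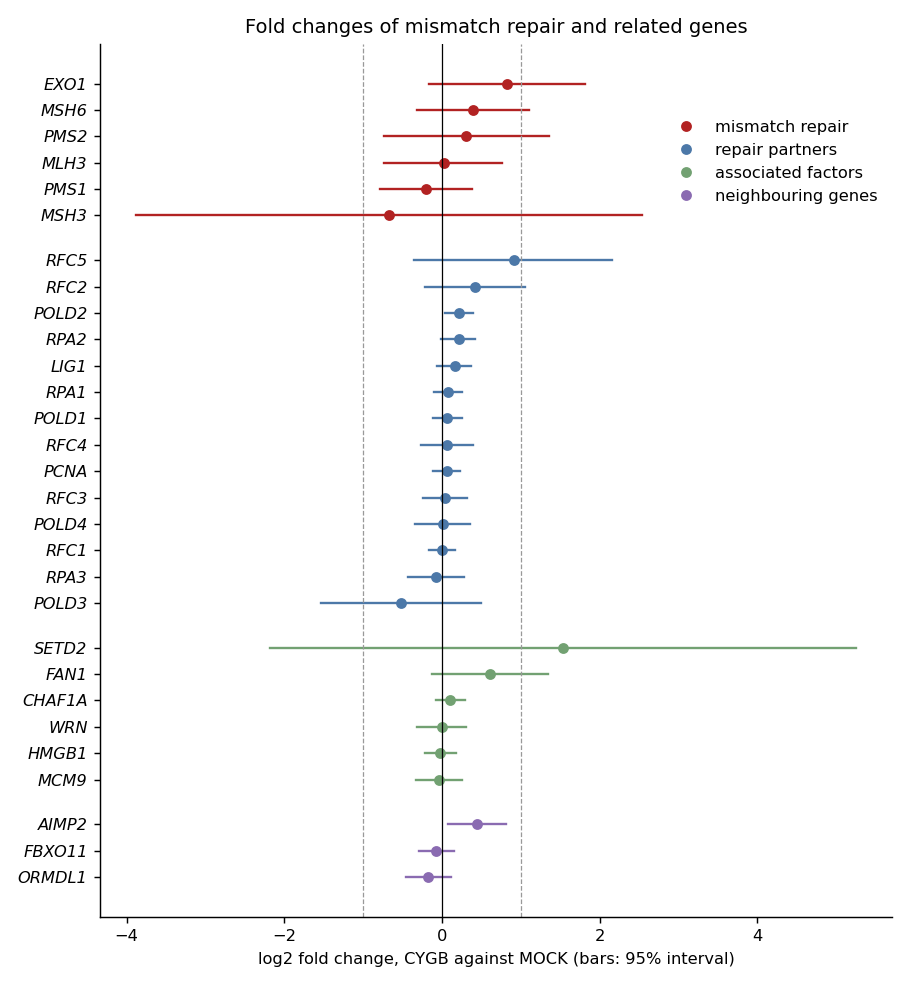
Log2 fold changes of CYGB against MOCK (horizontal axis) with 95% intervals for the mismatch repair genes, repair partners, associated factors and neighbouring genes. Dashed lines mark a 2-fold change. The interval of MSH3 runs from -3.88 to 2.54 and that of PCNA from -0.11 to 0.23.

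Among factors that recruit or assist the pathway, SETD2, the methyltransferase of the histone mark that MSH6 binds, was the most uneven. It had counts of 74, 4624 and 67 in the MOCK libraries, against 4371, 4263 and 4848 in CYGB, so that MOCK replicate 2 lay with the CYGB libraries. Whether SETD2 reads of the other 2 MOCK libraries were counted on transcripts without a gene was not tested. Its log2 fold change of 1.54 had a standard error of 1.53 (adjusted p = 0.963 by edgeR's quasi-likelihood test). FAN1, a nuclease that binds MutL proteins, had counts of 869, 422 and 648 in the MOCK libraries, against 1052, 1023 and 965 in CYGB, a log2 fold change of 0.61 (adjusted p = 0.963 by the same test). Scaled to library size its groups were not separate, with 18.4 CPM in both MOCK replicate 1 and CYGB replicate 3. The chromatin assembly factor subunit CHAF1A, the chromatin protein HMGB1, the helicase subunit MCM9 and WRN, the helicase that cells with unstable microsatellites depend on, had log2 fold changes from -0.04 (MCM9) to 0.10 (CHAF1A). None of these 6 factors was called. The meiotic MutS gene MSH4 had 0 counts in all 6 libraries, which allows up to 3 counts per library from counting error alone. MSH5, its partner, had 1369 to 1680 counts and a log2 fold change of -0.01.

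Of 10 proliferation genes, given because repair genes follow the cell cycle, 0 were called, 3 had positive and 7 negative log2 fold changes, and the median was -0.04. They ranged from -0.95 for CDK1 to 0.72 for CCNE2. CDK1 and MCM2 (log2 fold change 0.19) had unadjusted p of 0.0377 and 0.0363 by edgeR's quasi-likelihood test, with an adjusted p of 0.963 each. An unadjusted p under 0.05 was thus found for 2 of 10, against 4.54% of all genes. The CPM of the groups did not overlap for 1 of 10, MCM2, against 11.0% of all genes. MKI67 was at 200 ± 15.9 CPM in MOCK and 195 ± 14.2 CPM in CYGB (SD, n = 3 each).

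Pearson's r of log2 CPM was taken over the 6 libraries, which all genes share, as a description. Among the 15 pairs of mismatch repair genes it ranged from -0.93 (MSH6 with PMS1) to 0.50 (MSH6 with MSH3). MSH6 was high in the libraries in which PMS1 was low, and this pair is given as the extreme of the 15. Among 9946 or 9947 other genes averaging at least 10 CPM, those whose pattern was most like that of a member over these libraries were MIGA1 and USP43 for MSH6 (r = 0.983 and 0.976), KLF5 and MFSD8 for MSH3 (r = 0.989 and 0.987), and CCDC117 and RHEBP2 for PMS2 (r = 0.987 and 0.985). They were GALNT12 and TMEM184C for PMS1 (r = 0.994 and 0.989), RAB8B and EIF3C for MLH3 (r = 0.975 and 0.975), and ATG101 and PEPD for EXO1 (r = 0.993 and 0.991). With 6 libraries, 29 to 140 genes per member had r above 0.9, so these names are a description of this set of libraries.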

How the data were processed

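Total RNA of 3 MOCK and 3 CYGB libraries was sequenced, and the table that the authors deposited holds whole-number counts for each transcript and library, neither normalized nor pooled. The submitters' processing notes name HISAT2, HISAT and DESeq2 and the build hg19. However, the table's positions are those of GRCh38, since 99.6% of its 151393 transcripts found in GENCODE 29 have the same position there. The counting tool, how reads were divided among isoforms and whether strand was used are not given in the sources used here. All columns were used.

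Transcripts were summed per gene identifier. Genes (19987) and transcripts (66609) were kept by filterByExpr (minimum count 10), scaled with TMM factors, and edgeR 4.0.16 (glmQLFit and glmQLFTest, R 4.3.3) compared CYGB with MOCK, with Benjamini-Hochberg adjustment over all features. The threshold of the study's methods was an unadjusted p of at most 0.01 with a ratio of at least 2 or at most 0.5. Standard errors were taken from the F statistic. The within-group SD and r used log2 CPM with a prior count of 2. Figures used matplotlib 3.10.9. The steps were tested on simulated data. Alternatives were DESeq2 1.42.0, DESeq2 size factors, edgeR's exact test, other filters, the transcripts without a gene, a replicate block, leaving out libraries, the most abundant transcript, and PMS2 summed with its copies.

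Named were the 6 members, their transcripts with a mean of at least 100 counts or a call, the extreme and called partners, the genes of the small lists, and the 2 genes most like each member. Other transcripts named were chosen after their values were seen. The rule for members uses gene names alone, but the choice of this gene family and of the lists was made with earlier results of these data known. Windows of 150 bases were compared on both strands with GENCODE 29 transcripts of the listed genes. Promoters of all 6 members matched by symbol in the RefSeq table (GRCh38.p14). A further neighbouring gene is not reported here. Proteins were not analysed here.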

Additional observations from a re-analysis of the deposited data

How the results depend on the processing

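None of the 6 mismatch repair genes passed the threshold on the unadjusted p or an adjusted p under 0.05 in any of the 14 alternatives run on all genes, nor did any of the 14 partners. The adjusted p of the 6 genes ranged from 0.784 to 1 over their alternatives. The log2 fold changes of MSH6 (0.14 to 0.66), MSH3 (-1.30 to -0.07) and EXO1 (0.45 to 1.25) kept their direction in all 15 alternatives. With a library left out they ranged from 0.19 to 0.66, from -1.30 to -0.16 and from 0.53 to 1.25. The log2 fold change of PMS2 was -0.05 without MOCK replicate 1 (range -0.05 to 0.65 with a library left out). That of PMS1 was 0.02 without both libraries numbered 3 (range -0.48 to -0.08 with 1 left out). That of MLH3 was -0.03 for its most abundant transcript, -0.02 with the replicate block, and -0.31 to 0.21 with a library left out, negative without CYGB replicate 2 (-0.31) and without MOCK replicate 2 (-0.15). The number of the 6 genes with an unadjusted p under 0.05 was 0, and 1 with the replicate block (EXO1), and 0 to 1 with a library left out (PMS1 without CYGB replicate 1, EXO1 without MOCK replicate 3). The number of mismatch repair transcripts past the threshold was 0, and 0 to 2 with a library left out: 2 of PMS1 without CYGB replicate 2, 1 of PMS1 without CYGB replicate 3 and 1 of EXO1 without MOCK replicate 3. It was 1 without both libraries numbered 3. Each of these transcripts was at or near 0 in every remaining library of a group, and the cause was not tested further.

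The background moved more. Genes past the threshold numbered 113, but 263 with DESeq2, 256 under the exact test of edgeR, 62 when genes averaged 50 counts or more (fewer genes tested), 72 with the transcripts without a gene included, 220 without both libraries numbered 3 and 124 to 177 with a library left out, highest without MOCK replicate 3. Genes with an adjusted p under 0.05 numbered 11, but 108 with DESeq2, 64 with the exact test, 6 with the transcripts without a gene, 0 without both libraries numbered 3 and 6 to 14 with a library left out (6 without MOCK replicate 1, 7 without CYGB replicate 3). Transcripts past the threshold numbered 681, but 1506 with DESeq2, 1103 with the exact test, 319 when transcripts averaged 50 counts or more, 1367 without both libraries numbered 3 and 961 to 1209 with a library left out. Transcripts with an adjusted p under 0.05 numbered 10, but 748 with DESeq2, 519 with the exact test, 5 with no filter, 5 with the transcripts without a gene, 0 without both libraries numbered 3 and 0 to 7 with a library left out, lowest without CYGB replicate 3. The causes were not tested.

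Pairing by replicate number was not borne out. Across genes, the deviations of libraries 1, 2 and 3 of MOCK from the group mean correlated with those of their CYGB namesakes at r = 0.0159, 0.00487 and 0.0253, although each library correlated best with its own number, a hint from the data and not from the design. With the replicate block 78 genes and 291 transcripts passed the threshold, and 0 genes and 0 transcripts had an adjusted p under 0.05. The log2 fold change of MSH3 was -0.07 with the block and that of EXO1 0.90.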
